A study of Mus musculus with 4 samples.

Results

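The interferon regulatory factor (IRF) genes *Irf1*, *Irf2*, *Irf3*, *Irf4*, *Irf5*, *Irf7*, *Irf8* and *Irf9* were taken by symbol from a table of 55359 gene identifiers, and all 8 were among the 14637 genes with enough counts to be tested. Bulk RNAseq was compared between 2 libraries of T8 leukemia cells transduced with an empty retrovirus coding for GFP alone (EV-RV) and 2 libraries of T8 cells transduced with a retrovirus coding for GFP plus IRF4 (IRF4-RV), collected a day after transduction while still viable. T8 is a line grown from the primary precursor B cell acute lymphoblastic leukemia of a mouse with the genotype Irf4-/-, so all 4 libraries share this genotype and the EV-RV group is not a wild-type control. The line was set up on irradiated ST2 stromal cells with IL-7 and later grew without the feeder cells. Titles and tissue labels name T8, while the protocol text of the labels names T11. The libraries are called biological replicates without a statement on separate cultures, so p-values measure only the spread between these libraries, which may be technical.

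IRF proteins share a DNA-binding domain that contacts GAAA repeats. Interferons bind receptor chains that activate JAK1, JAK2 or TYK2, and phosphorylated STAT proteins join IRF9 in the complex ISGF3, which binds the interferon-stimulated response element (ISRE). IRF3, IRF5 and IRF7 wait in the cytoplasm until sensors of foreign nucleic acid activate them, and then induce interferon genes. IRF1 is an activator of many interferon-γ responsive genes and IRF2 competes with it for the same sites. IRF4 and IRF8 belong to lymphoid and myeloid cells, pair with the ETS factors PU.1 and Spi-B on composite ETS-IRF elements (EICE), and act together at the step where cycling B cell progenitors begin light chain rearrangement.

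The promoters of *Irf1*, *Irf2* and *Irf8* are shown because they were the members whose windows of 250 bases before to 50 bases after the start site held a match to a searched motif, and that of *Irf7* because this gene rose most after *Irf4*. The sequences are the 250 bases before the RefSeq start site on the gene's own strand (GRCm38.p6), with matches in capitals. Both strands were searched for the ISRE core (GAAA, any 2 bases, GAAA), the EICE core (GGAA, any 2 bases, GAAA) and the STAT site GAS (TTC, any 3 bases, GAA), which occurred in 3.44%, 2.72% and 8.3% of 32851 promoter windows of the same length. The windows are chr11:53769764-53770013 (plus strand) for *Irf1*, chr8:46739495-46739744 (plus strand) for *Irf2*, chr7:141266425-141266674 (minus strand) for *Irf7* and chr8:120736108-120736357 (plus strand) for *Irf8*.
Irf1: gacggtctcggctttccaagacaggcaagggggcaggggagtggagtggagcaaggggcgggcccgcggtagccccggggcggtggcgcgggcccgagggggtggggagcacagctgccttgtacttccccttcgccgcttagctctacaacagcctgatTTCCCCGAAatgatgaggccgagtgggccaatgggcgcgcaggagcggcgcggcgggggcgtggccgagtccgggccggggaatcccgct
Irf2: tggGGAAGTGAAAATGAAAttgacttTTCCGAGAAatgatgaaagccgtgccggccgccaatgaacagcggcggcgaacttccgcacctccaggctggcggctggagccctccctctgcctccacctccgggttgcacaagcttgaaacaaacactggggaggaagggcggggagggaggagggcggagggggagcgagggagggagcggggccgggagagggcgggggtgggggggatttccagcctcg
Irf7: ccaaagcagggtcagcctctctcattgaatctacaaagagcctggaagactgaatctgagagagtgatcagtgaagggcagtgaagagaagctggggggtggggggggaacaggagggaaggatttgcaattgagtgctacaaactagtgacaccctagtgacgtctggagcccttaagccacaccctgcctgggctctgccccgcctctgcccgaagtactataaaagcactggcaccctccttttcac
Irf8: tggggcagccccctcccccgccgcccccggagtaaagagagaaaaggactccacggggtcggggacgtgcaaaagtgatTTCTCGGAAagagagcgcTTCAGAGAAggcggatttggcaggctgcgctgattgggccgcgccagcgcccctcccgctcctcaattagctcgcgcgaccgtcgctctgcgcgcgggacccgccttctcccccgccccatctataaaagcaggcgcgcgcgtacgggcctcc
*Irf1* held 1 GAS match, TTCCCCGAA, whose first base lay at position -90 from the start site. *Irf2* held an EICE match, GGAAGTGAAA, starting at position -247, an ISRE match, GAAAATGAAA, overlapping it from -241, and a GAS match, TTCCGAGAA, at -224. *Irf8* held 2 GAS matches, TTCTCGGAA and TTCAGAGAA, at positions -171 and -153. No match was found in the windows of *Irf3*, *Irf4*, *Irf5*, *Irf7* and *Irf9*, nor in those of the other listed start sites of *Irf1* and *Irf8*. A match describes letters in the window and not binding.

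Library totals were 31686715 and 31230223 counts in the EV-RV group and 34771970 and 37817752 in the IRF4-RV group. Levels are given in CPM, the counts scaled to library size with TMM factors, and the detection floor of 3 counts was worth between 0.0823 and 0.0951 CPM, which covers counting error only. Replicates differed by more than sampling noise (chi-square per degree of freedom 15.5 for EV-RV and 14.3 for IRF4-RV). Each gene was tested by quasi-likelihood in edgeR, p-values were adjusted over all genes after Benjamini and Hochberg, and a gene was called at an adjusted p under 0.1. Of all genes tested, 29.7% were called, 16.0% as higher with IRF4-RV and 13.7% as lower. The higher genes made up 53.8% of the calls, and 37.8% when libraries were scaled by size alone. The B-lineage markers *Cd79a* and *Cd79b* were present in all 4 libraries, at 289 CPM or more, whereas *Rag1* was counted 1, 0, 1 and 1 times. One library stood apart in another marker list. The 9 stromal cell markers summed to 79.4 and 144 CPM in the EV-RV libraries, to 81.9 CPM in IRF4-RV replicate 1 and to 346 CPM in IRF4-RV replicate 2, and values without the latter are given where the call of a gene with values here changes.

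Of the 8 IRF genes, 6 were higher (*Irf1*, *Irf2*, *Irf4*, *Irf5*, *Irf7* and *Irf9*), 1 was lower (*Irf8*) and *Irf3* was not called. Among all genes tested, 16.0% were higher and 13.7% lower, which is the background for this and every list count below. The libraries of the groups did not overlap for 7 of the 8, against 61.2% of all genes tested. Both counts include *Irf4*, which the vector carries, so its rise follows from the design. Of the 7 genes other than *Irf4*, 5 were higher, 1 was lower and 1 was not called. The median log2 fold change over the 8 genes lay midway between those of *Irf2* (0.61) and *Irf1* (1.38), and over the 7 genes other than *Irf4* it was 0.61, against 0.01 over all genes tested. Without IRF4-RV replicate 2, 5 of the 8 genes were called, all higher. In a bulk sample, fewer cells with a transcript and less of it per cell cannot be told apart, and the sources used here do not say whether cells without the virus were removed.

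**Figure D1:**
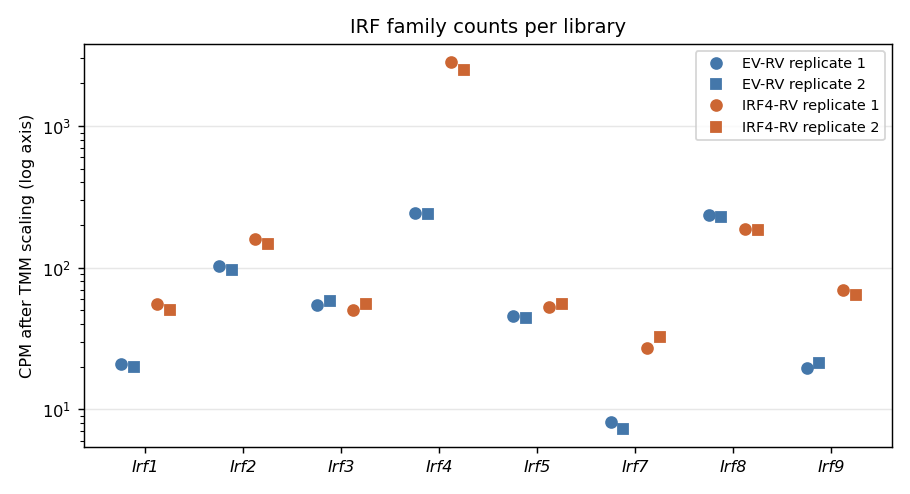
CPM (log axis) of the 8 IRF genes in each of the 4 libraries, EV-RV in blue and IRF4-RV in orange, with a circle for replicate 1 and a square for replicate 2. The groups overlap for *Irf3* alone, *Irf8* is the gene that lies lower with IRF4-RV in both libraries, and *Irf4* moves from 241 to 2655 CPM on average.

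*Irf4*, the gene carried by the vector, checks the labels first. It lies on chromosome 13 of GRCm38 (30749226 to 30766976, plus strand) and has the identifier ENSMUSG00000021356. Its level was 242 and 241 CPM in the EV-RV libraries and 2820.1 and 2489 CPM in the IRF4-RV libraries. Both IRF4-RV libraries were far above both EV-RV libraries, as labelled. Means were 241 ± 0.557 and 2655 ± 234 CPM (SD, n = 2), which is 3.46 ± 0.0907 (standard error) as a log2 fold change (edgeR adjusted p = 1.14e-06), the rise in place 92 among all genes tested. Of all counts, *Irf4* took 0.0255% and 0.0243% in the EV-RV libraries and 0.275% and 0.24% in the IRF4-RV libraries. EV-RV cells of the genotype Irf4-/- held *Irf4* reads at a level per length above that of 90.4% of the genes tested. Counts per gene do not show which exons were read, so reads from the disrupted locus, from intact transcripts and from the vector are not separated.

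*Irf8*, which acts together with *Irf4* in B cell progenitors, was the member called lower. It lies on chromosome 8 (120736358 to 120756694, plus strand, ENSMUSG00000041515) and was measured at 235 and 226 CPM with EV-RV and at 186 and 184 CPM with IRF4-RV. Both IRF4-RV libraries were below both EV-RV libraries, with means of 230.4 ± 5.87 and 185 ± 1.79 CPM (SD, n = 2). This was a log2 fold change of -0.32 with a standard error of 0.0702 (edgeR adjusted p = 0.0152). The fall held in size with each library left out, between -0.35 and -0.30, but without IRF4-RV replicate 2 the edgeR adjusted p was 0.134 and the gene was not called. *Gm20388*, which overlaps *Irf8* on the same strand, had 0 counts in every library.

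*Irf9*, the DNA-binding subunit of ISGF3, lies on chromosome 14 (55603571 to 55610030, plus strand, ENSMUSG00000002325). It was measured at 19.6 and 21.2 CPM with EV-RV and at 70 and 64.5 CPM with IRF4-RV. The groups were well apart, with means of 20.4 ± 1.12 and 67.3 ± 3.89 CPM (SD, n = 2) and a fold of 3.29. On the log2 scale the rise was 1.72 with a standard error of 0.0948 (edgeR adjusted p = 2.27e-05). *Rnf31*, which overlaps *Irf9* on the same strand, was counted 1128, 1020, 1500 and 1738 times and rose less (log2 fold change 0.48, edgeR adjusted p = 0.00742).

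*Irf7*, which amplifies interferon production once it is itself induced, lies on chromosome 7 (141262706 to 141266481, minus strand, ENSMUSG00000025498). It was measured at 8.17 and 7.29 CPM with EV-RV and at 27 and 32.1 CPM with IRF4-RV. Both IRF4-RV libraries were higher, with means of 7.73 ± 0.626 and 29.5 ± 3.58 CPM (SD, n = 2). The fold of 3.82 was the highest in the family after *Irf4* (log2 fold change 1.93, standard error 0.127, edgeR adjusted p = 4.53e-05). *Irf3*, which is made constantly and works beside *Irf7*, lies on the same chromosome (44997648 to 45002848, plus strand, ENSMUSG00000003184). It was measured at 54.3 and 58.4 CPM with EV-RV and at 50.2 and 55.1 CPM with IRF4-RV. Its groups overlapped and no change was detected (log2 fold change -0.10, standard error 0.0899, edgeR adjusted p = 0.49).

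*Irf5*, the factor downstream of MyD88-dependent Toll-like receptors, lies on chromosome 6 (29526625 to 29541871, plus strand, ENSMUSG00000029771). It was measured at 45.4 and 44 CPM with EV-RV and at 52.4 and 55.1 CPM with IRF4-RV. Both IRF4-RV libraries were higher, but by the smallest margin among the genes called (log2 fold change 0.27, standard error 0.0831, edgeR adjusted p = 0.055). The call was lost with any of the 4 libraries left out, with adjusted p-values of 0.107 and 0.153 without EV-RV replicates 1 and 2 and of 0.177 and 0.31 without IRF4-RV replicates 1 and 2. It was also lost with library size only, at an edgeR adjusted p of 0.178.

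*Irf1* lies on chromosome 11 (53770014 to 53778374, plus strand, ENSMUSG00000018899) and was measured at 20.7 and 19.9 CPM with EV-RV and at 55.6 and 50.2 CPM with IRF4-RV. The groups did not overlap, with means of 20.3 ± 0.536 and 52.9 ± 3.83 CPM (SD, n = 2; log2 fold change 1.38, standard error 0.0955, edgeR adjusted p = 5.51e-05). Its antagonist *Irf2*, on chromosome 8 (46739732 to 46847458, plus strand, ENSMUSG00000031627), was measured at 103 and 96.9 CPM with EV-RV and at 159.9 and 146 CPM with IRF4-RV. The antagonist rose too, by a smaller amount, from 100.1 ± 4.63 to 153 ± 10.1 CPM (SD, n = 2; log2 fold change 0.61, standard error 0.0828, edgeR adjusted p = 0.00171). The ratio of the level per length of *Irf1* to that of *Irf2* went from 0.372 and 0.382 in the EV-RV libraries to 0.647 and 0.641 in the IRF4-RV libraries. It was thus higher in both IRF4-RV libraries than in either EV-RV library.

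**Figure D2:**
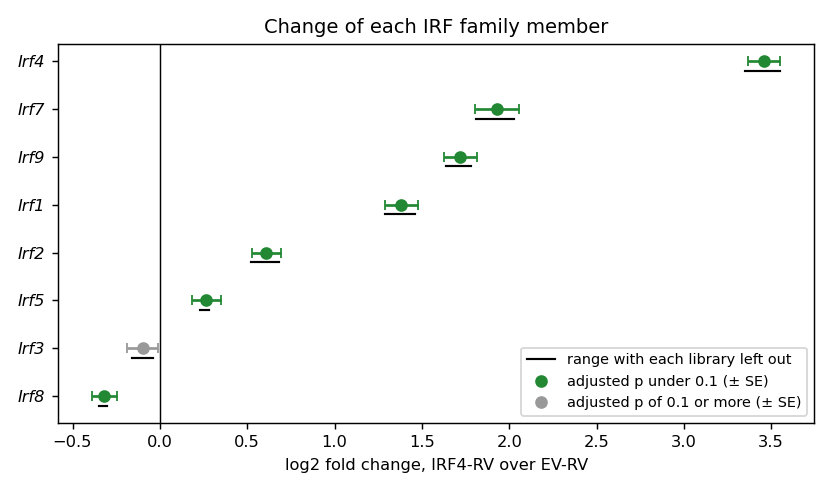
Log2 fold change of each IRF gene with IRF4-RV over EV-RV (points, with the standard error from edgeR as bars), green where the adjusted p was under 0.1, with a black line for the range when each library was left out in turn. *Irf4*, *Irf7*, *Irf9* and *Irf1* lie beyond 1, *Irf2* and *Irf5* between 0 and 1, and *Irf3* and *Irf8* below 0, of which *Irf8* alone was called.

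Folds are also given between libraries with the same replicate number, which comes from the titles alone. Where the groups did not overlap, any such pairing gives the same direction, so the direction adds no support. The first replicates, with near-equal stromal sums of 79.4 and 81.9 CPM, gave folds of 11.7 for *Irf4*, 3.57 for *Irf9*, 3.3 for *Irf7*, 2.69 for *Irf1*, 1.55 for *Irf2*, 1.15 for *Irf5*, 0.924 for *Irf3* and 0.794 for *Irf8*. The second replicates gave 10.3, 3.04, 4.4, 2.52, 1.5, 1.25, 0.943 and 0.812 in the same order. Among all genes tested, 0.697% moved further than *Irf4* in either direction, 2.29% further than *Irf7*, 2.9% further than *Irf9* and 4.73% further than *Irf1*. The changes of *Irf2*, *Irf8* and *Irf5* were more ordinary, with 19%, 40.1% and 46.3% of genes moving further. The members' transcripts shared runs of at most 19 identical bases, between *Irf5* and *Irf8*, and 18 between *Irf4* and *Irf8*.

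Levels of different genes were compared as CPM per kilobase of the union of exons. With EV-RV the order was *Irf4* (49.2 ± 0.114), *Irf8* (32.7 ± 0.832), *Irf3* (16.4 ± 0.846), *Irf5* (15.4 ± 0.335), *Irf2* (13.5 ± 0.626), *Irf1* (5.1 ± 0.135), *Irf9* (3.79 ± 0.209) and *Irf7* (2.05 ± 0.166; SD, n = 2 each). No neighbours in this order overlapped between libraries. With IRF4-RV the order was *Irf4* (541 ± 47.8), *Irf8* (26.2 ± 0.254), *Irf2* (20.7 ± 1.36), *Irf5* (18.5 ± 0.672), *Irf3* (15.3 ± 1.02), *Irf1* (13.3 ± 0.964), *Irf9* (12.5 ± 0.722) and *Irf7* (7.82 ± 0.947). The neighbours *Irf1* and *Irf9* then overlapped and the others did not. The members that were low with EV-RV thus moved toward the others, *Irf7* from percentile 34.8 to 61.7 among all genes tested, *Irf9* from 46.2 to 71.3 and *Irf1* from 52.7 to 72.5. With the length of the longest transcript in place of all exons, *Irf8* (66.4) came before *Irf4* (50.6) with EV-RV.

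*Irf4* made up 35.5% and 35.8% of the summed level per length of the 8 genes in the EV-RV libraries and 83.4% and 81.7% in the IRF4-RV libraries. The 7 other genes summed to 89.6 and 88.2 CPM per kilobase with EV-RV and to 115 and 114 with IRF4-RV. Within these 7, the share of *Irf8* was 37.1% and 36.4% in the EV-RV libraries and 23% and 22.9% in the IRF4-RV libraries. The shares of *Irf1*, *Irf9* and *Irf7* were 5.8% and 5.68%, 4.07% and 4.47%, and 2.42% and 2.19% with EV-RV. They were 12.2% and 11.1%, 11.3% and 10.5%, and 6.23% and 7.46% with IRF4-RV. Each of these 3 genes thus held a larger share in both IRF4-RV libraries. The level of *Irf4* per length exceeded that of *Irf8* 1.48-fold and 1.53-fold with EV-RV and 21.8-fold and 19.5-fold with IRF4-RV. With the longest transcript as length, however, *Irf4* was below *Irf8* with EV-RV, as given above. Levels per length of *Irf4* with IRF4-RV use the exons of the annotated gene. The length of the IRF4 insert is not given in the sources used here, so these levels, shares and ratios are uncertain.

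**Figure D3:**
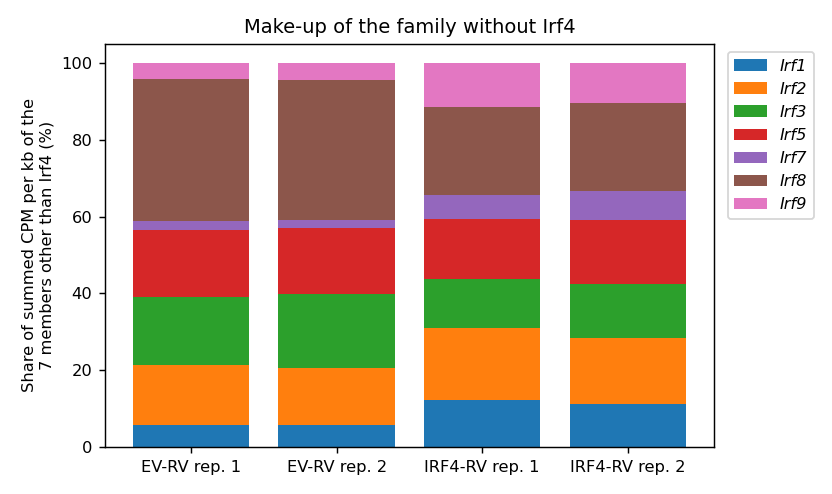
Share (%) of each gene in the summed CPM per kilobase of the 7 IRF genes other than *Irf4*, as stacked bars from 0, 1 bar per library. The band of *Irf8* narrows from 37.1% and 36.4% with EV-RV to 23% and 22.9% with IRF4-RV, while those of *Irf1*, *Irf7* and *Irf9* widen.

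The ligands were nearly absent. Of 21 interferon genes, 17 had 0 counts in all 4 libraries, among them all interferon-α genes listed. *Ifnb1* was counted 0, 3, 3 and 0 times, *Ifnz* 2, 11, 5 and 3 times and *Ifnk* 1, 0, 0 and 0 times, with the EV-RV libraries first. *Ifng*, the type II interferon, had 0 counts in both EV-RV libraries and 29 and 35 counts in the IRF4-RV libraries, at least 9.82-fold higher against 3 counts per library. It passed the count filter through the IRF4-RV libraries alone, so its edgeR adjusted p of 0.00182 adds no support. Its level there was low, at 0.856 and 0.961 CPM, and with a minimum of 1 CPM in 2 libraries it was not tested.

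Of the 6 interferon receptor chains, 5 were higher with IRF4-RV, 0 lower (0 also at an unadjusted p under 0.05 and by DESeq2) and 1 not called, with a median log2 fold change of 0.77. The type I chains *Ifnar1* (1088, 868, 2213 and 2076 counts, log2 fold change 1.02) and *Ifnar2* (0.69) rose, as did *Ifnlr1* (1.10) and *Il10rb* (0.85), which form the type III receptor (edgeR adjusted p between 0.000675 and 0.00133). Of the type II chains, *Ifngr2* rose (0.41, edgeR adjusted p = 0.0164, and 0.121 without IRF4-RV replicate 1), whereas *Ifngr1* had a log2 fold change of 0.07 and an edgeR adjusted p of 0.609.

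Of 10 kinases, STATs and feedback regulators of these receptors, 2 were higher, 0 lower (0 also at an unadjusted p under 0.05 and by DESeq2) and 8 not called, with a median log2 fold change of 0.10. The 2 were a partner of *Irf9* in ISGF3 and a feedback gene. *Stat2* had 354 and 294 counts in EV-RV and 1317 and 1263 in IRF4-RV libraries (log2 fold change 1.88, edgeR adjusted p = 3.2e-05). *Irf9* and *Stat2* were thus both higher in each IRF4-RV library. *Usp18*, which removes ISG15 from proteins and blocks the type I receptor, was counted 49, 51, 2277 and 3023 times, a fold of 48.7 (edgeR adjusted p = 1.38e-06). The kinases *Jak1*, *Jak2* and *Tyk2* (log2 fold changes 0.02, 0.31 and 0.18, edgeR adjusted p 0.913, 0.113 and 0.263) and the feedback inhibitors *Socs1* and *Socs3* (-0.05 and 0.08, edgeR adjusted p 0.757 and 0.585) were not called. Without IRF4-RV replicate 2, *Jak2* was called (0.35, edgeR adjusted p = 0.0901).

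The 25 ISGF3 target genes listed were all called higher, with a median log2 fold change of 2.10 and a range from 1.07 for *Herc6* to 7.03 for *Rsad2*. *Rsad2*, which codes for the antiviral enzyme viperin, was counted 7, 5, 870 and 862 times. *Isg15*, a ubiquitin-like modifier, was counted 53, 75, 1923 and 2300 times (log2 fold change 4.92, edgeR adjusted p = 2.35e-06). *Ifit1*, which binds foreign RNA caps, was counted 3, 0, 92 and 221 times, at least 47.5-fold higher against 3 counts per library. Members with very few counts with EV-RV, such as *Rsad2*, *Ifit1* and *Mx1*, passed the count filter through the IRF4-RV libraries alone. They could therefore only be called higher. The list was also compiled with earlier results of these data known, so its count, median and range are a description.

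Of 22 IRF1 target genes tested, 16 were higher, 0 lower (0 by DESeq2, and *Casp1* alone at an unadjusted p under 0.05) and 6 not called, with a median log2 fold change of 0.67. The largest rises were those of interferon-inducible GTPase genes. *Iigp1* was counted 1, 2, 348 and 460 times, at least 124-fold higher against 3 counts per library, and *Gbp6*, *Igtp* and *Irgm1* had log2 fold changes of 4.90, 3.10 and 2.42, while *Gbp3* and *Gbp7* were at 0.75 and 0.49, the latter not called without EV-RV replicate 2 (edgeR adjusted p = 0.169). Of the class I antigen presentation genes, *Tapbp* rose by 1.50, *Tap1* by 1.10 and *B2m* by 0.62 on the log2 scale, and *Tap2* (0.19), *Psme2* (0.22) and *Psmb10* (0.06) were not called (edgeR adjusted p between 0.119 and 0.687). The class II transactivator *Ciita*, a target of both IRF1 and IRF4, was counted 35, 24, 40 and 28 times and was not called (edgeR adjusted p = 0.888).

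Of 21 sensors, adaptors and kinases upstream of IRF3, IRF5 and IRF7, 12 were higher, 2 lower and 7 not called, with a median log2 fold change of 0.36. The cytoplasmic RNA sensors rose together, *Ddx58* (RIG-I) by 1.40, *Ifih1* (MDA5) by 1.24 and *Dhx58* (LGP2) by 1.64 on the log2 scale (edgeR adjusted p between 2.93e-05 and 0.000451). The endosomal receptor *Tlr7* was counted 0, 1, 39 and 33 times, at least 11.1-fold higher against 3 counts per library. *Tlr9* (log2 fold change 1.13), the adaptor *Myd88* (0.36) and *Slc15a4* (0.59), a transporter needed by endosomal receptors, also rose, while *Tlr4* fell by 0.66. The kinases that phosphorylate IRF3 and IRF7 were not called, *Tbk1* at a log2 fold change of 0.08 (edgeR adjusted p = 0.57) and *Ikbke* at 0.30 (edgeR adjusted p = 0.267).

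Of 16 DNA-binding partners and cofactors of IRF proteins, 7 were higher, 5 lower and 4 not called, with a median log2 fold change of 0.22. The ETS partners of IRF4 and IRF8 differed in direction. *Spi1* (PU.1) was counted 1275, 1182, 955 and 997 times and fell (log2 fold change -0.45, edgeR adjusted p = 0.00854). *Spib* was counted 5933, 6078, 7667 and 7528 times, with a log2 fold change of 0.23 that was called at an edgeR adjusted p of 0.0915 and kept the call with only 1 of the 4 libraries left out, EV-RV replicate 2. Of the AP-1 partners, *Batf* and *Jund* fell (-0.51 and -0.45). *Jun* was counted 35, 33, 54 and 165 times, and its rise (log2 fold change 1.55, edgeR adjusted p = 0.0512) was 0.61 without IRF4-RV replicate 2 (edgeR adjusted p = 0.399). The Ikaros factors *Ikzf1* and *Ikzf3* rose by 0.55 and 0.82. Of the IRF2-binding proteins, *Irf2bp1* fell (-0.42), while *Irf2bp2* (0.56) and *Irf2bpl* (0.35) rose, the latter not called without IRF4-RV replicate 1.

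Of 11 IRF4 and IRF8 target genes of the B lineage tested, 7 were higher, 2 lower and 2 not called, with a median log2 fold change of 0.67. The surrogate light chain genes *Igll1* and *Vpreb1* fell by 1.30 and 1.49 on the log2 scale, and the adaptor *Blnk* rose by 1.04. The chemokine receptor gene *Cxcr4* was counted 2799, 2703, 6342 and 5571 times and rose as well (edgeR adjusted p = 0.000466). *Prdm1*, the plasma cell factor Blimp-1, was counted 8, 9, 46 and 35 times (log2 fold change 2.13, edgeR adjusted p = 0.0115). *Ikzf1*, *Ikzf3* and *Spib* stand in this list and among the partners. Without IRF4-RV replicate 2, the calls were 6 higher and 2 lower in this list, 6 higher and 5 lower among the partners, 10 higher and 2 lower among the sensors, adaptors and kinases, 15 higher among the IRF1 targets, 25 higher among the ISGF3 targets, 5 higher among the receptor chains and 3 higher among the kinases, STATs and feedback genes.

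**Figure D4:**
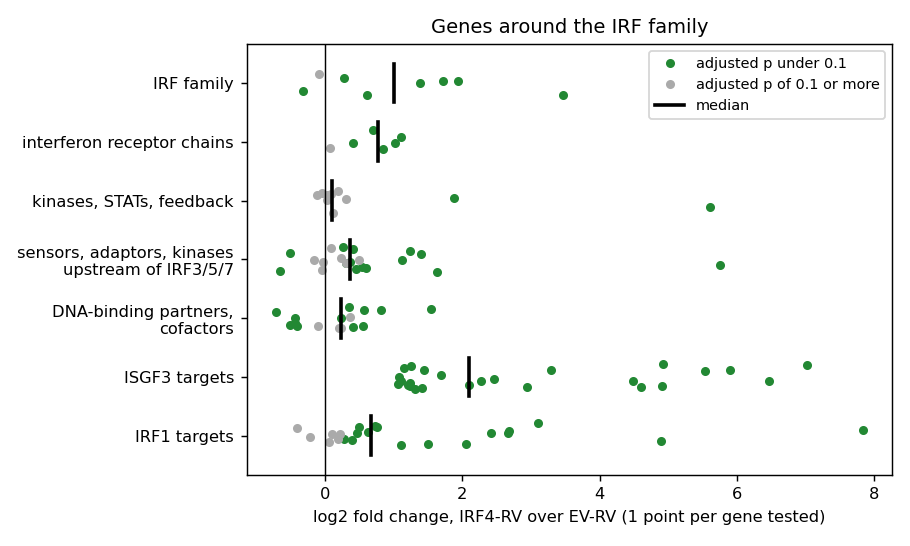
Log2 fold change with IRF4-RV over EV-RV of each tested gene (1 point per gene) in the lists around the IRF family, green where the edgeR adjusted p was under 0.1, with a black bar at the median of the list. The ISGF3 targets all lie above 1, the kinases, STATs and feedback genes cluster near 0 with 2 exceptions, and values of genes with at most 3 counts in each EV-RV library depend on the fit.

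Other marker lists moved in part with the IRF genes. The 11 macrophage and monocyte markers summed to 1.53 and 1.52 CPM with EV-RV and to 8.62 and 7.49 CPM with IRF4-RV. *Mrc1* carried the rise (24, 23, 260 and 230 counts), while *Adgre1* was at 0 in all libraries and *Lyz2* was counted 1, 0, 0 and 0 times. The 9 dendritic cell markers summed to 2.28 and 1.65 CPM with EV-RV and to 4.6 and 5.02 CPM with IRF4-RV, with *Flt3* called higher and *Siglech* and *Itgax* at 0. The 10 granulocyte markers summed to 0.18 and 0.158 CPM with EV-RV and to 2.18 and 1.76 CPM with IRF4-RV, with most counts in the IRF4-RV libraries from *Ly6g* (1, 0, 71 and 58 counts), and 5 markers were at 0. The 13 T and NK cell markers summed to 20.7 and 21.1 CPM with EV-RV and to 13.4 and 13.8 CPM with IRF4-RV, mostly *Trac*, with *Cd8a*, *Cd8b1*, *Ncr1* and *Gzmb* at 0. The 10 B-lineage markers summed to 3768 and 3904 CPM with EV-RV and to 2944 and 2894 CPM with IRF4-RV. Of the 9 tested, 2 were higher and 2 lower, and the latter were *Igll1* and *Vpreb1*. Of the 7 stromal markers tested, 0 were called (edgeR, 0 also at an unadjusted p under 0.05 and by DESeq2). The sign of each depended on which IRF4-RV library was kept, so the missing calls reflect IRF4-RV libraries that disagreed and do not show equal levels. Without IRF4-RV replicate 2, *Col1a1*, *Col1a2* and *Cxcl12* had log2 fold changes of -0.42, -0.65 and -0.76. Without IRF4-RV replicate 1, the values were 1.56, 1.64 and 1.89 in the same order. The part of these lists in the levels of the IRF genes was not tested.

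**Figure D5:**
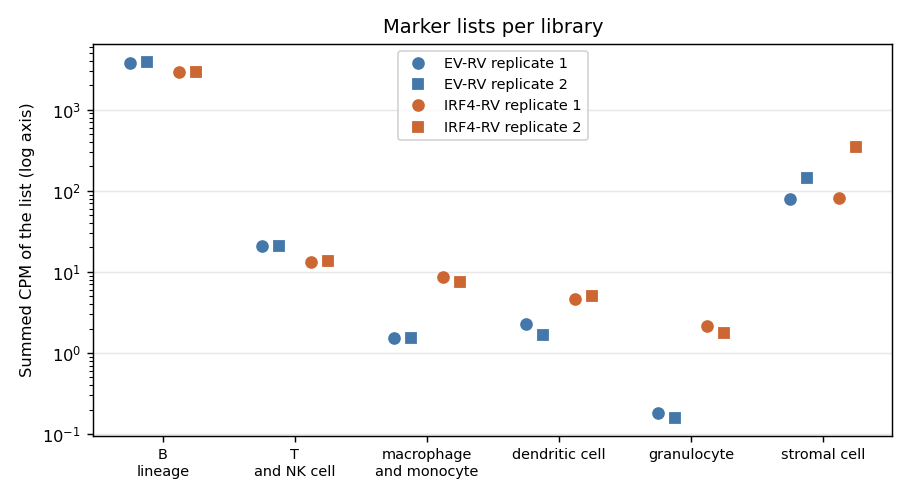
Summed CPM (log axis) of 6 lists of cell type markers in each library, EV-RV in blue and IRF4-RV in orange, with a circle for replicate 1 and a square for replicate 2. IRF4-RV replicate 2 stands apart in the stromal list at 346 CPM, and the macrophage, dendritic and granulocyte lists stay below 10 CPM in every library.

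The genes whose pattern over the 4 libraries was most like that of each called member were found by the Euclidean distance between log2 CPM, each centred on the gene's own mean. A small constant was added to the counts before taking logs. Nearest to *Irf1* were *Ccnd2* (distance 0.0276), *Manea* (0.0321) and *Trp53inp2* (0.049), and nearest to *Irf9* were *Tnfrsf13c* (0.0624), *Cd83* (0.0795) and *St8sia4* (0.0947). Nearest to *Irf7* were *Fbxo17* (0.0384), *Hpse* (0.139) and *Stoml1* (0.146). For *Irf4* they were *Grn* (0.147), *Gbp9* (0.221) and *Rflna* (0.238). *Rflna* was at the detection floor with EV-RV (0.0898 and 0.0951 CPM, log2 fold change 4.15), so its distance depends on the added constant. For *Irf8* they were *Cnot11* (0.0186), *Hsp90aa1* (0.0213) and *Ipo5* (0.0232). For *Irf2* they were *F8* (0.0234), *Nipal3* (0.0378) and *Iffo1* (0.0382), and for *Irf5* they were *Shoc2* (0.00565), *Tmco4* (0.0149) and *Gm5459* (0.0213). With 4 libraries in 2 groups, these distances mostly compare the size of the change.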

How the data were processed

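Per the labels and the study's methods, bulk RNAseq reads of T8 cells were aligned to GRCm38 with STAR 2.4.0j and counted with featureCounts. Raw counts, deposited by the authors without normalization, are whole numbers per gene. FastQC 0.11.2 and DESeq2 1.22.1 are named in the submitters' processing notes. Whether strand or multi-mapping reads were used in counting is not given in the sources used here, so overlapping genes are uncertain. This also holds for genes on the opposite strand, *Phrf1* at *Irf7*, *Bcl2l12* at *Irf3* and *Tnpo3* at *Irf5*. These were not called (edgeR adjusted p 0.479, 0.933 and 0.648). Of 55359 identifiers, 52083 matched GENCODE M21, which gave symbols, coordinates and exon lengths.

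Groups and replicate numbers came from the sample titles. Genes passing filterByExpr were tested in R 4.3.3 with edgeR 4.0.16 (TMM factors between 0.9635 and 1.054, quasi-likelihood F test, Benjamini-Hochberg adjustment), without a covariate and at the FDR of 0.1 that the study used. Alternatives were DESeq2 1.42.0, its size factors, library size only, other count filters, an FDR of 0.05, a replicate block and leaving out each library. On simulated counts for this comparison (200 of 14637 genes changed, 5 simulations), 39.1%, 72.2% and 87.3% of genes changed by 0.5, 1 and 2 on the log2 scale were recovered. Of the calls, 15.8% were false, above the nominal share. In the data 29.7% of genes were called, far more than were changed in the simulation, so these values need not carry over.

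The members and the gene lists were chosen with earlier results of these data known. Named genes are the members, in each list the called genes with the largest changes and those with a role next to a member, interferon genes with any count, and the 3 genes nearest in pattern to each called member. Folds against at most 3 counts per EV-RV library were taken against 3 counts. Genes with so few EV-RV counts passed the filter through the IRF4-RV libraries alone and could only be called higher, so their calls add no support. Promoter sequences are from RefSeq, and protein sequences were not used here. Some genes are not reported here.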

Additional observations from a re-analysis of the deposited data

How the results depend on the processing

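The calls of *Irf1*, *Irf2*, *Irf4*, *Irf7* and *Irf9* were kept, with the same sign, under each alternative run, and *Irf3* was called under none. No called log2 fold change of a member turned its sign. Over all genes, the balance of calls did turn with library size only, from 2340 higher and 2009 lower to 1743 higher and 2867 lower. *Irf5* lost its call at an FDR of 0.05 (adjusted p = 0.055, so that 6 IRF genes were called), with library size only (log2 fold change 0.18) and with each library left out (0.23 to 0.28), and *Irf8* lost it without IRF4-RV replicate 2, with values between -0.35 and -0.30 over the 4 libraries left out. The causes were not tested. With a minimum of 1 CPM in 2 libraries no interferon gene was tested and the count called was 0, by construction. With the longest transcript as length, 4 members kept their place in the order of levels with EV-RV and 5 with IRF4-RV, and the mean share of *Irf4* was 24.4% in place of 35.6% and 74.2% in place of 82.5%.

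Replicate numbers come from the titles and there are only 2 per group, so they share no stated origin. Libraries with the same number deviated together from the means of their groups (correlation 0.26 across genes, which are not independent replicates). With the replicate block, 6394 genes were called in place of 4349, 7 IRF genes as before, and 4 kinases, STATs and feedback genes in place of 2. On simulated counts 23.3% of calls with the block were false, a value that need not carry over either, because few genes were changed. Leaving out each library gave between 3573 and 3646 calls over all genes, and 2 libraries per group limit the precision of each value.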
